A study of Saccharomyces cerevisiae with 11 samples.

Results

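The response of yeast to arsenate was compared between phosphate-poor and phosphate-rich medium 8 h after exposure. The members were the 2 arrays of the low phosphate 8 h group and the 2 arrays of the high phosphate 8 h group, 4 of the 11 arrays of the series, and 5073 of its 5641 genes had a value on at least 1 array of each group. All cultures were Saccharomyces cerevisiae S288C, the laboratory strain of the reference genome, grown in synthetic medium with sucrose. The low phosphate cultures had 100 μM phosphate and 2 μM arsenate, and the high phosphate cultures had 1 mM phosphate and 2 μM arsenate. Each array held RNA of an arsenate culture labelled with Cy5 and RNA of a control culture labelled with Cy3, which received sodium chloride instead of arsenate. The labels give the salt as 200 mM without saying whether this is the stock or the culture. The other groups of the series were sampled at 4 h and 10 h. Values are log2 ratios, the arsenate culture over its control, relative to the median gene of each array, and every difference is low minus high phosphate, so a difference of 1 is a 2-fold higher ratio at low phosphate.

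Arsenate resembles phosphate and enters yeast through phosphate carriers. Inside the cell it is reduced to arsenite by Arr2, and arsenite is pumped out by Arr3 or conjugated to glutathione and moved to the vacuole by Ycf1. Yeast senses phosphate through the PHO pathway: when phosphate is scarce the inhibitor Pho81 holds back the cyclin and kinase Pho80 and Pho85, the activator Pho4 stays in the nucleus, and genes for high-affinity carriers, acid phosphatases and polyphosphate synthesis are transcribed. A ratio compares 2 cultures at the same phosphate concentration, so it does not show whether a PHO gene was more abundant at low than at high phosphate.

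The 4 arrays were not equally precise. Of 10807 spots, 9412 and 9175 had a value on the low phosphate arrays and 7840 and 6999 on the high phosphate arrays. Across genes, which are not independent replicates, the replicate arrays correlated at 0.936 (Pearson, 5353 genes) at low phosphate and at 0.199 (4253 genes) at high phosphate. Spots of the same gene on the same array correlated at 0.881 and 0.874 at low phosphate and at 0.163 and 0.299 at high phosphate. The median SD between replicates was 0.0749 at low and 0.176 at high phosphate. At high phosphate 251 genes lay below -1 on array 1 and 152 on array 2, but only 21 on both, whereas at low phosphate these numbers were 120, 138 and 103. All low phosphate arrays were of 1 array design and all high phosphate arrays of another, so phosphate and array design cannot be told apart, and 1 dye orientation was used throughout. No label states that replicate arrays came from separate cultures, so p-values measure only the spread between replicate arrays. Unless stated otherwise, that spread was pooled over the groups of the whole series and is not that of these 4 arrays alone. The small number of arrays limits the precision.

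**Figure D1:**
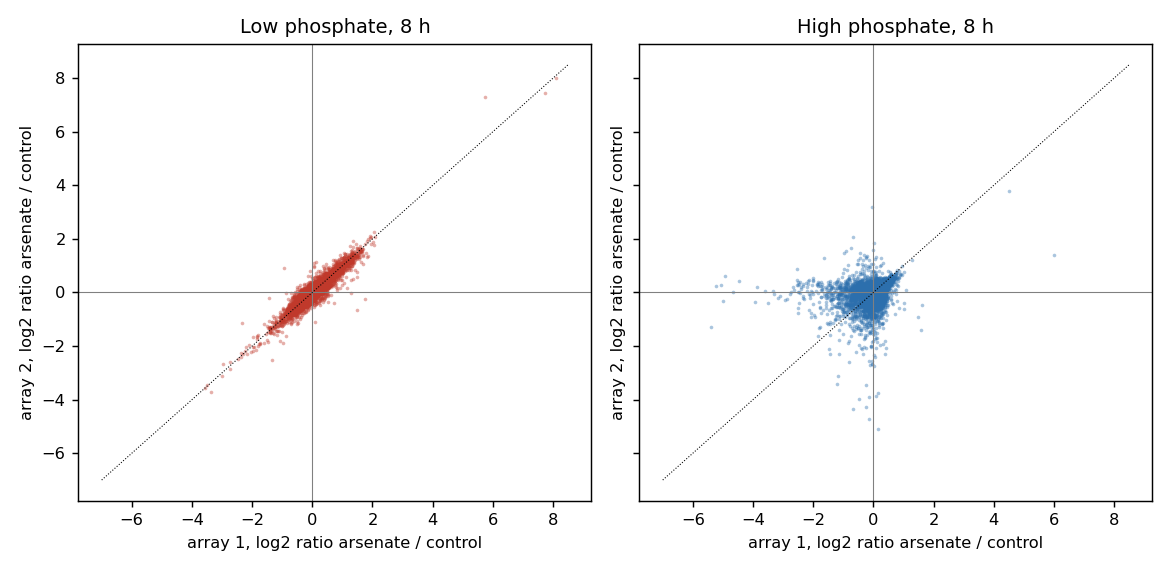
Log2 ratio of arsenate over control of each gene on array 1 (horizontal) and array 2 (vertical), for low phosphate at 8 h (left) and high phosphate at 8 h (right), each point 1 gene and the dotted line equality. Low phosphate genes follow the line (r = 0.936), while at high phosphate many genes are far below 0 on 1 array and near 0 on the other (r = 0.199).

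Differences were tested gene by gene with limma over all genes tested, with Benjamini-Hochberg adjustment at 0.05, and a gene is called higher or lower below where it passed. The fit uses 1 pooled spread, which is smaller than the scatter of the high phosphate 8 h arrays, so counts of calls are followed by those from a second limma fit with array weights, in which the 8 h arrays had weights of 1.78 at low and 0.238 at high phosphate. The ratio was higher at low phosphate for 1113 genes (21.9%; 580 genes or 11.4% with array weights) and lower for 639 (12.6%; 226 or 4.45% with array weights), and 801 genes were called by both fits. Of the called genes, 420 were at least 2-fold higher and 123 at least 2-fold lower (336 and 101 with array weights). The median difference over all genes was 0.12, and list medians are to be read against it. Of 4205 genes valued on all 4 arrays, both low phosphate arrays lay above both high phosphate arrays for 1631 (38.8%) and below both for 1136 (27.0%).

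More genes were called against their control at low than at high phosphate. With arsenate, 1177 genes were higher (23.2%) and 822 lower (16.2%) than the control culture at low phosphate (1509 or 29.7% and 1250 or 24.6% with array weights). At high phosphate 563 were higher (11.1%) and 600 lower (11.8%), but with array weights 0 (0.00%) were called in either direction by limma, against 259 and 463 at an unadjusted p under 0.05. A limma fit on the high phosphate arrays alone also called 0, against 590 and 519 at an unadjusted p under 0.05, so single-gene ratios at high phosphate are given below as values. Without centring the arrays the split was 818 higher and 1169 lower at low phosphate and 142 and 814 at high phosphate.

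**Figure D2:**
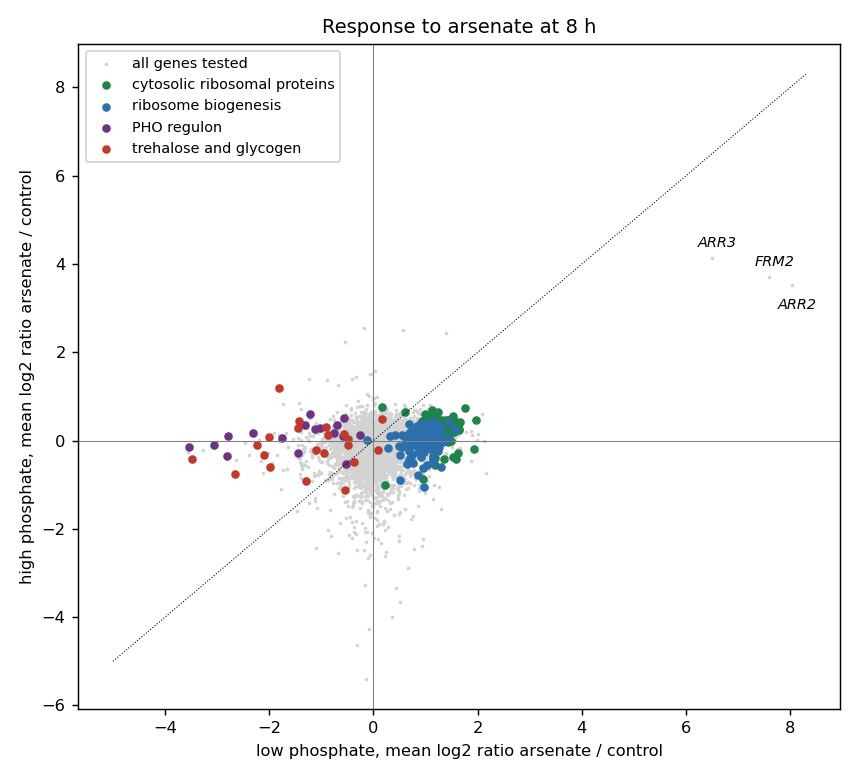
Mean log2 ratio of arsenate over control at 8 h at low phosphate (horizontal) and high phosphate (vertical), for all 5073 genes tested (grey) and the genes of 4 lists (colours), with equality dotted. Genes for ribosomes spread to the right and PHO and glycogen genes to the left, and ARR2, ARR3 and FRM2 stand apart at the upper right. On the vertical axis the list medians were 0.34 for ribosomal protein, 0.06 for ribosome biogenesis, 0.12 for PHO and -0.09 for trehalose and glycogen genes.

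Genes of the PHO regulon were lower with arsenate at low phosphate and near or slightly above the control at high phosphate. Of 18 genes listed 17 were tested, and 15 were lower and 0 higher (15 and 0 with array weights), with a median difference of -1.38. The median ratio of the 17 was -1.22 at low and 0.12 at high phosphate. SPL2 lacked the values for a test.

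Among the secreted acid phosphatases, which free phosphate from organic esters, PHO5 stood at -2.73 and -2.86 at low phosphate, against 0.10 and 0.09 at high phosphate. PHO11 stood at -2.30 and -2.31 at low phosphate, against 0.03 and 0.30 at high phosphate. Both low phosphate arrays lay more than 2 units below both high phosphate arrays for each gene, with a difference of -2.89 (SE 0.14, adjusted p = 0.000107) for PHO5 and -2.47 (SE 0.12, adjusted p = 0.000107) for PHO11. Both genes met a naming rule that required large differences without overlap, so this gap is no added support. PHO12 differed by -1.82 (SE 0.17); it is nearly identical to PHO11, and the array may not separate them. The vacuolar alkaline phosphatase gene PHO8 was also lower, with values of -0.73 and -0.79 at low phosphate, against 0.28 and 0.09 at high phosphate, and a difference of -0.94 (SE 0.12).

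The high-affinity carriers, through which arsenate can enter, moved with the phosphatases. PHO84, the proton-coupled carrier, stood at -1.35 and -1.10 at low phosphate, against 0.58 and 0.61 at high phosphate, a difference of -1.82 (SE 0.11, adjusted p = 0.000225). PHO89, the sodium-coupled carrier, stood at -1.30 and -1.33 at low phosphate, against 0.44 and 0.28 at high phosphate, a difference of -1.67 (SE 0.11, adjusted p = 0.000225). For both, the low phosphate arrays were below 0 and the high phosphate arrays above 0. GIT1, which imports glycerophosphoinositol, had the largest fall, with -3.37 and -3.73 at low phosphate, against 0.27 and -0.55 at high phosphate, and a difference of -3.41 (SE 0.29, adjusted p = 0.000943). GDE1, a glycerophosphodiesterase that acts on glycerophosphocholine, differed by -1.17 (SE 0.18), and PHO86, needed for Pho84 to leave the endoplasmic reticulum, by -0.68 (SE 0.12).

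The 4 subunits of the vacuolar transporter chaperone, which makes and stores polyphosphate, were all lower. VTC3 stood at -1.002 and -1.23 at low phosphate, against 0.43 and 0.10 at high phosphate, a difference of -1.38 (SE 0.15, adjusted p = 0.000754). VTC1, VTC2 and VTC4 differed by -1.30, -1.08 and -1.06. PHM6, a phosphate-regulated gene, was valued on 1 high phosphate array only and stood at -2.99 and -3.13 at low phosphate, against -0.11 on array 1 alone at high phosphate. PHM8, a nucleotide phosphatase, stood at -2.95 and -2.67 at low phosphate, against 0.19 and -0.90 at high phosphate. Its high phosphate arrays lay 1.09 apart, and the difference was -2.46 (SE 0.33, adjusted p = 0.00219). The exceptions were PHO81 and PHM7: PHO81 stood at -0.50 and -0.57 at low phosphate, against -1.10 and 0.04 at high phosphate, where array 1 was below and array 2 above the low phosphate values, and its difference had a 95% confidence interval of -0.73 to 0.73. PHM7 stood at -0.27 and -0.24 at low phosphate, against -0.45 and 0.69 at high phosphate, and was not called (adjusted p = 0.544).

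Regulators and low-affinity carriers did not share this pattern. Of 10 tested, 1 was higher and 2 lower (1 and 1 with array weights), beside 21.9% and 12.6% of all genes, and the median difference was -0.03. KCS1, the inositol hexakisphosphate kinase that makes inositol pyrophosphates, stood at -0.99 and -1.03 at low phosphate, against 0.30 and 0.32 at high phosphate, a difference of -1.32 (SE 0.10, adjusted p = 0.000296). VIP1, the other inositol pyrophosphate kinase, stood at -0.43 and -0.54 at low phosphate, against 0.39 and 0.13 at high phosphate, lower by the equal-weight fit (difference -0.75, adjusted p = 0.00854) and not with array weights (adjusted p = 0.069). The low-affinity carrier PHO90 ran the opposite way, with 1.13 and 1.22 at low phosphate, against 0.40 and -0.19 at high phosphate, and a difference of 1.07 (SE 0.22, adjusted p = 0.00798). The carriers PHO87 and PHO91 differed by -0.01 (SE 0.13) and 0.25 (SE 0.19), neither called, and the activators PHO4 and PHO2 by 0.46 (SE 0.25) and -0.34 (SE 0.11), neither called. PHO87 and PHO4 had a value on 1 high phosphate array only. PHO80 stood at -0.07 and -0.39 at low phosphate, against 0.07 and 1.24 at high phosphate, and was not called (adjusted p = 0.0759).

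**Figure D3:**
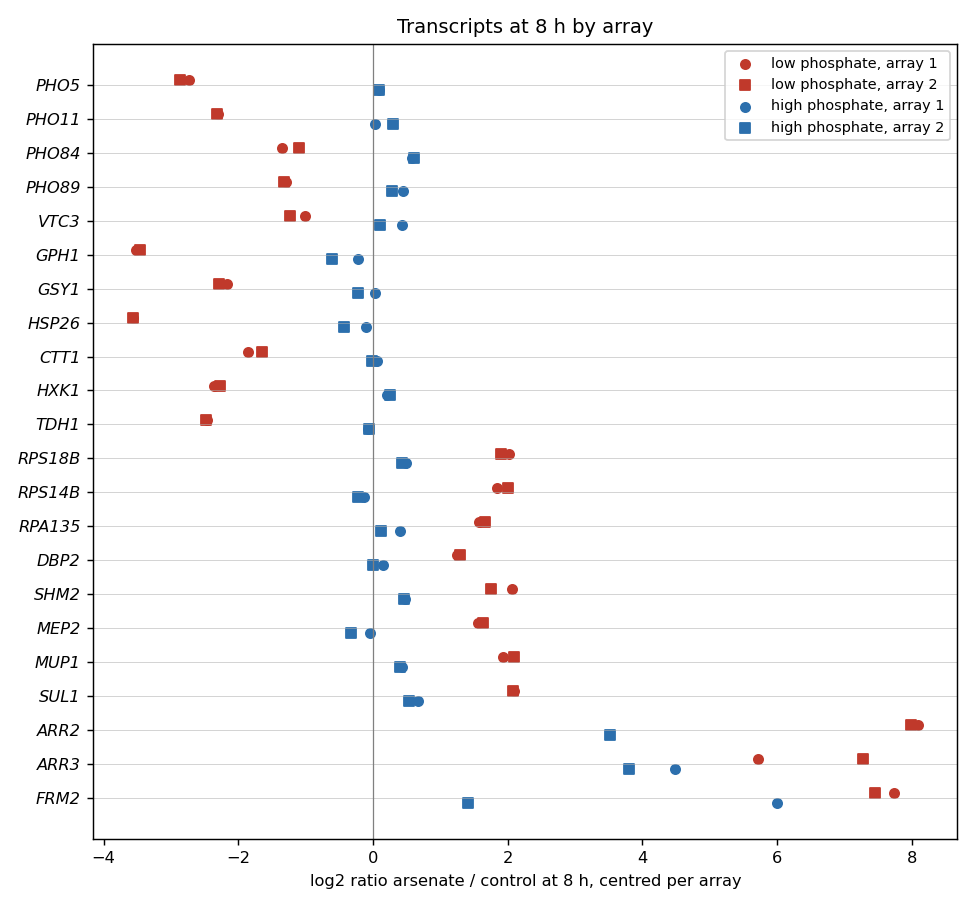
Log2 ratio of arsenate over control at 8 h for 22 transcripts, each array shown as a point (low phosphate red, high phosphate blue, circle array 1, square array 2). The PHO, glycogen and stress genes lie left of 0 at low phosphate and near 0 at high phosphate. The ribosomal, purine and permease genes lie to the right at low phosphate, and ARR2, ARR3 and FRM2 are far right there. At high phosphate ARR3 is far right on both arrays and ARR2 on array 2, its only value. FRM2 is at 5.998 on array 1 and 1.41 on array 2.

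Genes for reserve carbohydrates were lower at low phosphate. Of 21 trehalose and glycogen genes tested, 14 were lower and 0 higher (12 and 0 with array weights), with a median difference of -0.995, and the median ratio was -1.10 at low and -0.09 at high phosphate. GPH1, glycogen phosphorylase, stood at -3.52 and -3.46 at low phosphate, against -0.22 and -0.61 at high phosphate, a difference of -3.08 (SE 0.16, adjusted p = 0.000225). The glycogen synthase gene GSY1 stood at -2.17 and -2.29 at low phosphate, against 0.04 and -0.22 at high phosphate, and the branching enzyme gene GLC3 at -1.87 and -2.14 at low phosphate, against 0.29 and -0.13 at high phosphate. Enzymes of synthesis and of breakdown thus fell together. These 3 genes were named by a rule that required groups without overlap, so their lack of overlap is no added support. In the list, both low phosphate arrays lay below both high phosphate arrays for 15 of the 18 members valued on all 4. Over all genes this share was 27.0%. For trehalose, TPS1 and TPS2, which encode its synthase and phosphatase, differed by -0.88 (SE 0.11) and -1.22 (SE 0.16), and the regulatory subunit gene TSL1 by -1.77 (SE 0.24). The neutral trehalase gene NTH2 differed by -0.995 (SE 0.13), while TPS3 stood at -0.65 and -0.45 at low phosphate, against -2.55 and 0.29 at high phosphate, with the high phosphate arrays far apart and no call.

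General stress genes followed the same direction. Of 23 tested, 17 were lower and 0 higher (13 and 0 with array weights), with a median difference of -1.08. CTT1, cytosolic catalase, stood at -1.85 and -1.65 at low phosphate, against 0.05 and -0.02 at high phosphate, a difference of -1.77 (SE 0.15, adjusted p = 0.000365). GAD1, glutamate decarboxylase, stood at -2.39 and -2.40 at low phosphate, against -0.43 and -0.21 at high phosphate, a difference of -2.07 (SE 0.12, adjusted p = 0.000232). MSC1 stood at -2.24 and -2.17 at low phosphate, against -0.05 and 0.07 at high phosphate, and the membrane stress protein gene HSP12 at -1.41 and -1.32 at low phosphate, against -0.16 and -0.47 at high phosphate. All 4 genes were below 0 on both low phosphate arrays and lay nearer 0 on both high phosphate arrays. CTT1, GAD1 and MSC1 were named for the largest differences of the list, so their separation is no added support. Of the 30 genes listed, 7 were not tested for lack of values.

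Heat shock genes were divided. Of 28 tested, 13 were lower and 2 higher (5 and 1 with array weights), beside 12.6% and 21.9% of all genes, and the median difference was -0.26. HSP26, a small heat shock protein, stood at -3.56 and -3.57 at low phosphate, against -0.10 and -0.43 at high phosphate, a difference of -3.30 (SE 0.15, adjusted p = 0.000107) and the second largest fall among genes valued on all 4 arrays. HSP104, the disaggregase, stood at -1.39 and -1.35 at low phosphate, against 0.53 and 0.29 at high phosphate, a difference of -1.78 (SE 0.19, adjusted p = 0.000736). SSE2, HSP78 and HSP42 were lower by both fits, with differences of -1.22, -1.15 and -0.80. The cytosolic Hsp70 genes SSA1 and SSA2 differed by -0.19 (SE 0.12) and 0.34 (SE 0.11), neither called, and CUR1, a protein-sorting factor, was higher, with 0.53 and 0.47 at low phosphate, against -0.40 and -0.44 at high phosphate, and a difference of 0.92 (SE 0.11). SSA1 had a value on 1 low phosphate array only.

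The broadest difference was in genes that make ribosomes. Of 135 cytosolic ribosomal protein genes tested, 128 were higher and 1 lower (114 and 0 with array weights), with a median difference of 0.96. Their median ratio was 1.25 at low and 0.34 at high phosphate, so they lay above the median gene in both conditions. RPS14B stood at 1.85 and 2.01 at low phosphate, against -0.14 and -0.22 at high phosphate, a difference of 2.11 (SE 0.12, adjusted p = 0.000184). RPS18B stood at 2.03 and 1.90 at low phosphate, against 0.48 and 0.43 at high phosphate, a difference of 1.502 (SE 0.10, adjusted p = 0.000225). Both low phosphate arrays lay above both high phosphate arrays for 131 of the 133 members valued on all 4. The 1 lower gene was RPL41B, with 0.16 on array 1 alone at low phosphate, against 0.77 and 0.74 at high phosphate, where 1 low phosphate array had no value (adjusted p = 0.0115, and 0.0595 with array weights). Many ribosomal protein genes come in near-identical pairs, which the array may not separate.

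Ribosome assembly genes and the polymerases that transcribe ribosomal and transfer RNA were higher too. Of 120 ribosome biogenesis genes tested 112 were higher and 0 lower (80 and 0 with array weights), with a median difference of 0.93 and median ratios of 0.99 at low and 0.06 at high phosphate. NOP13, a nucleolar protein, stood at 1.28 and 1.32 at low phosphate, against -0.71 and -0.47 at high phosphate, a difference of 1.89 (SE 0.11, adjusted p = 0.000187). BUD22, a factor for the small subunit, stood at 0.91 and 0.82 at low phosphate, against -0.99 and -0.56 at high phosphate, a difference of 1.64 (SE 0.15, adjusted p = 0.00044). DBP2, an RNA helicase, stood at 1.25 and 1.30 at low phosphate, against 0.15 and 0.00 at high phosphate. Both low phosphate arrays lay above both high phosphate arrays for these 3 genes, as for 111 of the 113 list members valued on all 4. Over all genes this share was 38.8%. For NOP13 and BUD22 the groups lay on opposite sides of 0. These genes were named for having some of the largest differences of the list, so their lack of overlap is no added support.

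Of 20 genes for subunits and factors of RNA polymerases I and III, 18 were higher and 0 lower (14 and 0 with array weights), with a median difference of 1.22. RPA135, the second largest subunit of polymerase I, stood at 1.57 and 1.66 at low phosphate, against 0.40 and 0.12 at high phosphate, a difference of 1.36 (SE 0.15, adjusted p = 0.000743). RPA190, the largest subunit, differed by 1.00 (SE 0.12). RPC82, a polymerase III subunit, had the largest difference of the list, 3.33 (SE 1.39), but its values were 0.88 and 0.99 at low phosphate, against -5.06 and 0.27 at high phosphate, and it was not called (adjusted p = 0.102). Of 35 translation factor genes 16 were higher and 0 lower (8 and 0 with array weights), with a median difference of 0.45, and TIF3, which encodes initiation factor eIF4B, stood at 0.91 and 0.87 at low phosphate, against -0.15 and 0.00 at high phosphate.

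**Figure D4:**
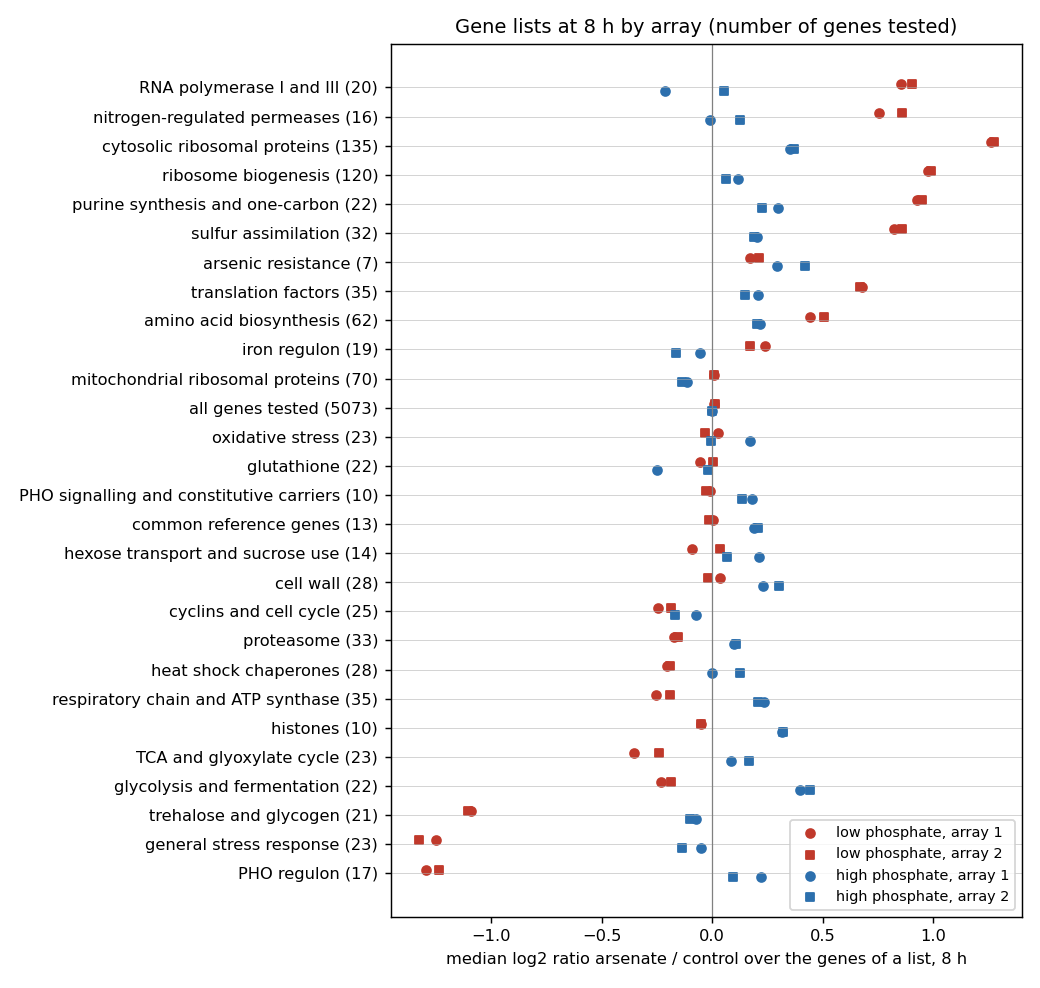
Median log2 ratio of arsenate over control at 8 h over the tested genes of each list, 1 point per array (low phosphate red, high phosphate blue), ordered by the median difference with the number of genes tested in brackets. The PHO, stress and reserve carbohydrate lists lie left at low phosphate and the ribosome, polymerase, purine and permease lists right, while the high phosphate medians stay closer to 0.

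Purine and one-carbon genes were mostly higher. Of 22 tested, 19 were higher and 0 lower (10 and 0 with array weights), with a median difference of 0.74 and median ratios of 0.95 at low and 0.23 at high phosphate. SHM2, cytosolic serine hydroxymethyltransferase, stood at 2.06 and 1.75 at low phosphate, against 0.47 and 0.46 at high phosphate, a difference of 1.44 (SE 0.12, adjusted p = 0.000423). ADE4, which catalyses the first step of purine synthesis, stood at 1.38 and 1.53 at low phosphate, against 0.53 and 0.37 at high phosphate, a difference of 1.00 (SE 0.11, adjusted p = 0.000643). ADE17, near the end of the same pathway, differed by 1.23 (SE 0.17), and the regulator BAS1 by 0.88 (SE 0.10). Of 62 amino acid biosynthesis genes 25 were higher and 5 lower (9 and 0 with array weights), with a median difference of 0.36. LEU9, an isopropylmalate synthase, stood at 1.95 and 1.82 at low phosphate, against 0.28 and -0.01 at high phosphate, a difference of 1.76 (SE 0.12, adjusted p = 0.000232).

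Permeases for nitrogen sources were higher in 11 of 16 genes tested and lower in 0 (7 and 0 with array weights), with a median difference of 1.05. Their median ratio was 0.82 at low and -0.03 at high phosphate. The ammonium permease MEP2 stood at 1.57 and 1.64 at low phosphate, against -0.04 and -0.33 at high phosphate, a difference of 1.79 (SE 0.12, adjusted p = 0.000232). The general amino acid permease GAP1 stood at 1.49 and 1.36 at low phosphate, against 0.25 and 0.05 at high phosphate, and the glutamine permease GNP1 at 1.83 and 1.93 at low phosphate, against 0.14 and 0.29 at high phosphate. MEP2, GAP1 and GNP1 were above 1 on both low phosphate arrays and below 0.5 on both high phosphate arrays, but GAP1 and GNP1 were chosen after their values were seen. Other members were below 1 at low phosphate, such as the ammonium permease MEP1 at 0.70 and 0.86 and the proline permease PUT4 at 0.44 and 0.43. The arginine permease CAN1, in contrast, stood at 0.48 and 0.43 at low phosphate, against 0.57 and 0.42 at high phosphate, and was not called (adjusted p = 0.796).

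Sulfur assimilation genes, which supply the cysteine of glutathione, were higher in 19 of 32 and lower in 0 (15 and 0 with array weights), with a median difference of 0.64. Their median ratio was 0.78 at low and 0.19 at high phosphate. At the entry points, the sulfate permease SUL1 stood at 2.10 and 2.08 at low phosphate, against 0.66 and 0.53 at high phosphate, a difference of 1.49 (SE 0.19, adjusted p = 0.00117). The methionine permease MUP1 stood at 1.93 and 2.10 at low phosphate, against 0.44 and 0.40 at high phosphate, a difference of 1.60 (SE 0.13, adjusted p = 0.000362), and the S-methylmethionine permease MMP1 at 1.96 and 2.07 at low phosphate, against 0.16 and 0.14 at high phosphate, a difference of 1.86 (SE 0.11, adjusted p = 0.000184). Both SUL1 and MUP1 were above 0 on all 4 arrays. Along the pathway, MET14, adenylylsulfate kinase, stood at 1.25 and 1.21 at low phosphate, against -0.05 and 0.41 at high phosphate, with a difference of 1.05 (SE 0.15, adjusted p = 0.00209). MET3, ATP sulfurylase, stood at 1.05 and 0.36 at low phosphate, against 0.56 and 0.47 at high phosphate, where the low phosphate arrays lay on either side of the high phosphate arrays (adjusted p = 0.493). MET17, which joins sulfide to a carbon chain, stood at 0.48 and 0.74 at low phosphate, against 0.74 and 0.76 at high phosphate, and was not called, and MET4, the activator of the pathway, at -0.07 and 0.16 at low phosphate, against 0.24 and 0.13 at high phosphate, also not called.

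Glutathione genes themselves showed no common direction. Of 22 tested, 4 were higher and 6 lower (2 and 2 with array weights), beside 21.9% and 12.6% of all genes, and the median difference was 0.00. GSH1, the first enzyme of glutathione synthesis, stood at 1.00 and 0.71 at low phosphate, against 0.74 and 0.53 at high phosphate, a difference of 0.22 (SE 0.15) that was not called (adjusted p = 0.292). The glutathione importer OPT1 stood at 0.73 and 0.38 at low phosphate, against -0.28 and -0.69 at high phosphate, and was higher by the equal-weight fit (difference 1.04, adjusted p = 0.00704) but did not pass with array weights (adjusted p = 0.05). The glutaredoxin gene GRX1 stood at -0.71 and -0.56 at low phosphate, against 0.19 and 0.00 at high phosphate, and was lower by both fits (difference -0.73).

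ARR2, ARR3 and FRM2 had the highest mean ratios of the 5073 genes in both conditions. Of 7 arsenic resistance genes 2 were higher and 1 lower (2 and 0 with array weights), beside 21.9% and 12.6% of all genes. The 2 higher were ARR2 and YAP1, each with a value on 1 high phosphate array only. ARR2, the arsenate reductase, stood at 8.10 and 7.99 at low phosphate, against 3.51 on array 2 alone at high phosphate. Its difference was 4.53 (SE 0.24, adjusted p = 0.000225), with no second array behind the high phosphate value. ARR3, the arsenite exporter encoded beside it, stood at 5.72 and 7.28 at low phosphate, against 4.49 and 3.80 at high phosphate. The groups did not overlap for ARR3, but the low phosphate arrays lay far apart and the difference of 2.36 (SE 1.16) was not called (adjusted p = 0.156, 95% confidence interval -0.35 to 5.08). FRM2, a nitroreductase-like protein, stood at 7.73 and 7.45 at low phosphate, against 5.998 and 1.41 at high phosphate, with the high phosphate arrays far apart, and its difference of 3.89 (SE 1.28) just missed the threshold (adjusted p = 0.0509). ARR1, the activator of ARR2 and ARR3, stood at 0.49 and 0.51 at low phosphate, against 0.34 and 0.35 at high phosphate, a difference with an interval of -0.07 to 0.38 (adjusted p = 0.261). YCF1, the vacuolar transporter, stood at 0.15 and 0.08 at low phosphate, against 0.69 and 0.49 at high phosphate, and was lower by the equal-weight fit (difference -0.48, adjusted p = 0.0197) and not with array weights (adjusted p = 0.121). The glycerol channel FPS1, through which arsenite passes, stood at 0.17 and 0.09 at low phosphate, against 0.07 and -0.91 at high phosphate, and was not called (adjusted p = 0.163).

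Other oxidative stress genes were divided, with 6 of 23 higher and 8 lower (3 and 3 with array weights), beside 21.9% and 12.6% of all genes. Of the higher genes YAP1, CCS1 and FLR1, and of the lower SRX1, had a value on 1 high phosphate array only. YAP1 is also counted among the arsenic resistance genes above. PRX1, the mitochondrial peroxiredoxin, stood at -1.34 and -1.09 at low phosphate, against 0.24 and -0.04 at high phosphate, a difference of -1.32 (SE 0.14, adjusted p = 0.000675). TRX2, a thioredoxin, and TSA1, the major cytosolic peroxiredoxin, were lower by both fits, with differences of -0.80 and -0.64. ATR1, a multidrug efflux pump, was higher, with 1.57 and 1.34 at low phosphate, against 0.64 and -0.45 at high phosphate, and a difference of 1.36 (SE 0.30, adjusted p = 0.0117). YAP1, the regulator of oxidative stress genes, stood at -0.37 and -0.38 at low phosphate, against -1.36 on array 1 alone at high phosphate. The difference of YAP1, 0.99 (SE 0.12), rests on that 1 high phosphate value and was -0.028 (adjusted p = 0.828) when the high phosphate mean of 4, 8 and 10 h took its place.

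Glycolytic genes were lower at low phosphate in 17 of 22 and higher in 0 (10 and 0 with array weights), with a median difference of -0.68. Their median ratio was -0.19 at low and 0.38 at high phosphate. HXK1, the hexokinase used on poorer carbon sources, stood at -2.36 and -2.27 at low phosphate, against 0.21 and 0.25 at high phosphate, a difference of -2.54 (SE 0.14, adjusted p = 0.000184). TDH1, a minor glyceraldehyde-3-phosphate dehydrogenase, stood at -2.46 and -2.48 at low phosphate, against -0.08 and -0.05 at high phosphate, and ENO1, an enolase, at -1.22 and -1.45 at low phosphate, against 0.39 and 0.31 at high phosphate. For these 3 genes most of the difference lay in the low phosphate values. In other members it lay more in the high phosphate values: TDH3 stood at 0.04 and -0.18 at low phosphate, against 0.72 and 0.54 at high phosphate, and the pyruvate kinase gene CDC19 at -0.22 and -0.03 at low phosphate, against 0.95 and 0.67 at high phosphate. The 13 genes often used as references had medians of 0.00 and -0.01 on the low phosphate arrays and 0.19 and 0.21 on the high phosphate arrays, with 3 lower and 0 higher (1 and 0 with array weights), and ACT1 stood at -0.09 and 0.23 at low phosphate, against 0.43 and 0.43 at high phosphate. The part of this shift in the glycolytic result was not tested.

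Genes of mitochondrial metabolism and histone genes were more often lower than higher, and the part of the same shift was not tested for them either. In the tricarboxylic acid and glyoxylate cycles 11 of 23 were lower and 1 higher (4 and 0 with array weights), with CIT1, citrate synthase, at -0.59 and -0.58 at low phosphate, against 0.50 and 0.45 at high phosphate. In the respiratory chain and ATP synthase 13 of 35 were lower and 0 higher (4 and 0 with array weights), with RIP1, the Rieske iron-sulfur protein, at -0.60 and -0.41 at low phosphate, against 0.40 and 0.36 at high phosphate. Of 10 histone genes 5 were lower and 0 higher (1 and 0 with array weights), with HHF1, a histone H4 gene, at -0.26 and -0.25 at low phosphate, against 0.36 and 0.34 at high phosphate. Of 33 proteasome genes 5 were lower, a share near the 12.6% of all genes, and 1 was higher, and 0 of either with array weights. Of the genes of the mitochondrial ribosome, 6 of 70 were higher and 1 lower (2 and 0 with array weights), a smaller share than over all genes.

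Sugar carriers, the cell wall, iron uptake and the cell cycle had calls in both directions. Over all genes 21.9% were higher and 12.6% lower (11.4% and 4.45% with array weights). Of 14 hexose transport and sucrose genes 2 were higher and 4 lower (0 and 4 with array weights). HXT7, a high-affinity glucose carrier nearly identical to HXT6, stood at -0.86 and -1.06 at low phosphate, against 0.30 and 0.05 at high phosphate, a difference of -1.13 (SE 0.12, adjusted p = 0.000736), while SUC2, invertase, stood at 0.14 and 0.22 at low phosphate, against 0.59 and 0.39 at high phosphate, and was not called (adjusted p = 0.0531). Of 28 cell wall genes 3 were higher and 10 lower (2 and 3 with array weights), with PST1, a cell wall protein gene that responds to wall damage, at -0.83 and -0.62 at low phosphate, against 0.34 and 0.36 at high phosphate. Of 19 iron regulon genes 4 were higher and 2 lower (1 and 0 with array weights), shares near the 21.9% and 12.6% of all genes. Of 25 cyclin and cell cycle genes 2 were higher and 5 lower (2 and 2 with array weights). The G1 cyclin gene CLN1 stood at -0.70 and -1.01 at low phosphate, against -0.04 and -0.15 at high phosphate. It was lower by the equal-weight fit (adjusted p = 0.00383) and not with array weights (adjusted p = 0.0562).

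The largest single differences were of unequal quality. Among the 12 genes with the largest called fall and no overlap, the 2 high phosphate arrays lay a median of 0.298 apart and 1 gene had a gap over 1. Among the 12 with the largest called rise the median gap was 1.87, and 7 genes had a gap over 1. PUT4, the proline permease, stood at 0.44 and 0.43 at low phosphate, against -5.39 and -1.30 at high phosphate, and KEL3 at 1.17 and 1.43 at low phosphate, against -2.89 and -0.23 at high phosphate. Without high phosphate array 1 the difference of PUT4 was 1.73 and that of KEL3 1.53, against 3.78 and 2.86 with both arrays. DUS3, a dihydrouridine synthase, stood at 0.69 and 1.20 at low phosphate, against -0.48 and -3.98 at high phosphate, and without high phosphate array 2 its difference was 1.42, against 3.17 with both. Rises with closer high phosphate arrays were those of RPS14B above, of OAR1, a mitochondrial fatty acid synthesis enzyme, at 0.97 and 0.76 at low phosphate, against -1.28 and -1.01 at high phosphate, and of TMA46, a ribosome-associated protein, at 1.14 and 1.16 at low phosphate, against -1.45 and -1.19 at high phosphate. The uracil permease FUR4 stood at 1.18 and 1.14 at low phosphate, against -1.15 and -0.88 at high phosphate, called by the equal-weight fit (adjusted p = 0.0132) and not with array weights (adjusted p = 0.11).

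Calls shared by both conditions depended on the fit, since with array weights limma called 0 genes at high phosphate, against 259 higher and 463 lower at an unadjusted p under 0.05. By the equal-weight fit 286 of 5073 genes were higher with arsenate in both conditions and 109 lower in both. Another 108 were higher at low and lower at high phosphate, against 78 the other way. Over all genes 23.2% were higher and 16.2% lower at low phosphate, and 11.1% and 11.8% at high phosphate. Whether the shared counts exceed what these shares alone would give was not tested. Among those higher in both by that fit were elongation factor genes: YEF3 stood at 0.96 and 0.94 at low phosphate, against 0.93 and 0.68 at high phosphate, with a difference interval of -0.14 to 0.44, and TEF2, nearly identical to TEF1, at 1.02 and 1.14 at low phosphate, against 0.88 and 0.71 at high phosphate, with an interval of -0.0043 to 0.57. Among those lower in both by that fit, NNR2, which repairs damaged nicotinamide cofactors, stood at -1.40 and -1.36 at low phosphate, against -1.12 and -0.59 at high phosphate, and PIG2, a glycogen-related phosphatase subunit, at -1.31 and -1.27 at low phosphate, against -1.31 and -0.51 at high phosphate. MEP1, an ammonium permease, was on opposite sides of 0, with 0.70 and 0.86 at low phosphate, against -1.11 and -0.89 at high phosphate.

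For part of the genes the contrast between the phosphate conditions at 8 h differed from that at 4 h. The change of the difference, 8 h minus 4 h, in which a constant preference of a gene for a dye or array design cancels, was called higher for 586 of 4936 genes (11.9%) and lower for 270 (5.47%), or 356 (7.21%) and 121 (2.45%) with array weights. Without centring the arrays the split was 204 and 254. Of the 856 genes so called, 704 also had a called difference of the same sign at 8 h, and both use the same 8 h arrays. In all, 1707 genes had a called difference at 8 h and a tested change. For most of these no change of the same sign was called, which does not show that there was none. Examples are SUL1, with a difference of 1.63 at 4 h and 1.49 at 8 h, a change of -0.14 (SE 0.26), and HSP104, with -2.26 and -1.78, a change of 0.48 (SE 0.27).

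In the PHO regulon the change was lower for 13 of 16 genes and higher for 0 (12 and 0 with array weights). The median difference of the list was 0.18 at 4 h, -1.38 at 8 h and -0.46 at 10 h, the last against 1 high phosphate array. The difference of PHO5 was 1.37 at 4 h, -2.89 at 8 h and -1.20 at 10 h, a change of -4.25 (SE 0.19, adjusted p = 0.000202) between 4 and 8 h. That of PHO84 was 0.39, -1.82 and -0.67 at 4, 8 and 10 h, a change of -2.21 (SE 0.16, adjusted p = 0.000801). For both genes the difference was positive at 4 h and most negative at 8 h.

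Among ribosomal protein genes the change was higher for 117 of 135 and lower for 0 (104 and 0 with array weights), with median differences of -0.09, 0.96 and 0.34 at 4, 8 and 10 h. Ribosome biogenesis genes had median differences of 0.21, 0.93 and -0.68, and 62 of 120 had a higher change and 0 a lower one (34 and 0 with array weights). Purine and one-carbon genes had -0.19, 0.74 and -0.55, with a higher change in 13 of 22 and a lower one in 0 (11 and 0 with array weights). The 10 h medians of these last 2 lists thus had the opposite sign to those at 8 h.

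Stress lists had negative median differences already at 4 h. Trehalose and glycogen genes had median differences of -0.58, -0.995 and 0.23 at 4, 8 and 10 h, and 7 of 21 had a lower change and 0 a higher one (5 and 0 with array weights). General stress genes had -0.50, -1.08 and -0.01, with 6 of 23 lower and 2 higher (4 and 1 with array weights). Heat shock genes had -0.71, -0.26 and -0.25, and for 11 of 27 the change was higher and for 1 lower (11 and 1 with array weights), and the list median lay further from 0 at 4 h than at 8 h. BTN2, a chaperone-like sorting factor, had a difference of -2.71 at 4 h and 0.05 at 8 h, a change of 2.76 (SE 0.17, adjusted p = 0.000393). HSP26 ran the other way, with -1.14 at 4 h and -3.30 at 8 h, a change of -2.16 (SE 0.21, adjusted p = 0.00221).

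**Figure D5:**
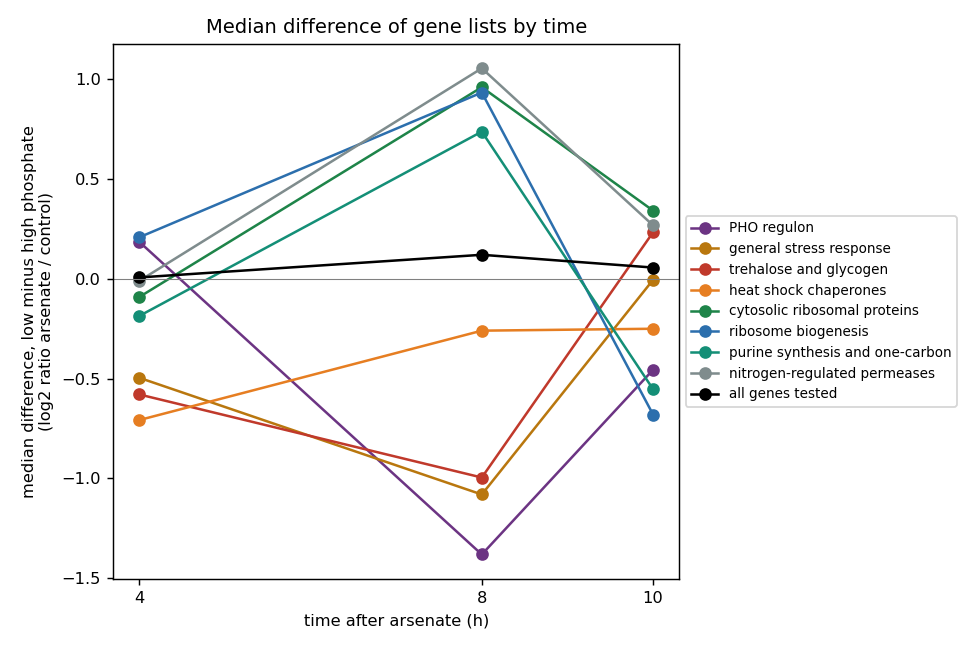
Median difference in log2 ratio of arsenate over control, low minus high phosphate, over the genes of 8 lists and of all genes tested, at 4, 8 and 10 h, with 2 arrays per condition and time except 1 high phosphate array at 10 h. The PHO regulon is at 0.18, -1.38 and -0.46, and ribosomal protein genes at -0.09, 0.96 and 0.34.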

How the data were processed

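Of 11 arrays with 2 channels, the 4 sampled at 8 h are described here. The authors deposited normalized ratios, read here as log2 of Cy5 (arsenate) over Cy3 (control); per the labels, spots with a flag value of 0 entered normalization. The sources used here give no method, log base or direction: direction was taken from the dyes, base 10 would exceed a scanner's range, and base 2 over e was assumed. How far spots stood above background is unknown, since intensities were not used here. Spots named 1 gene in the platform annotation (9202 spots at low and 9271 at high phosphate, of 10807 each) and were averaged per gene. Symbols were updated with RefSeq's gene table, which held 5593 of 5598 and 5636 of 5636 genes. Each array was centred on its gene median.

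Genes valued on 1 or more arrays of each 8 h group were fitted with limma 3.58.1 in R 4.3.3 (lmFit, eBayes; all 11 arrays, 1 mean per group), with two-sided tests, Benjamini-Hochberg adjustment and a threshold of 0.05. The change from 4 h needed a value in 4 groups. SE is limma's moderated one. The fit was also run on simulated data, whose outcome is not reported here and is not used as support. Python 3.11.15, numpy 2.4.6, pandas 2.3.3 and matplotlib 3.10.9 prepared tables and figures.

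The members and the 27 lists were chosen with earlier results of these data known. Genes were named by rule: among genes valued on all 4 arrays, the 12 largest called differences without overlap in each direction, the 3 largest of each list, the 6 largest changes from 4 h in each direction, the 6 largest calls shared by or opposite between the conditions, and 38 genes always; other list members named in the text were chosen after their values were seen. Alternatives covered centring, scaling, missing values, samples in the fit, array weights, moderation, the replicate block, spot averaging, spot choice and leaving out each array; 4 more were chosen after seeing the data. Promoters, sequences and genome positions were not used here.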

Additional observations from a re-analysis of the deposited data

Results flagged for a closer look

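The change of the difference between 4 and 8 h was called for these genes, a test of the difference between times. PHO5 changed by -4.25 and PHO11 by -3.12. LEE1 changed by -3.26, YOL153C by -3.57 and GAD1 by -2.61. PCD1 changed by -5.81. At 4 h PCD1 and YOL153C had a value on 1 array of each condition, BDH2 on 1 high phosphate array and GAD1 on 1 low phosphate array. In the other direction BDH2 changed by 3.30, CAR1, arginase, by 3.16, BTN2 by 2.76, MEP1 by 2.69, ZPR1 by 2.67 and APJ1 by 2.49. With array weights the adjusted p of these 12 ran from 0.000481 for PHO5 to 0.0155 for YOL153C.

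Of the 108 genes called higher with arsenate at low and lower at high phosphate, 6 were named by rule, with a called difference of 2.47 for TMA46, 2.01 for OAR1, 1.87 for UPA1, 1.78 for MEP1, 1.73 for TCA17 and 1.68 for MET8. With array weights, or with the spread of the high phosphate arrays alone, no gene was called at high phosphate (0 of either direction). At an unadjusted p under 0.05, limma with array weights had 259 higher and 463 lower. The high phosphate side of these 6 was thus not kept. Their difference was called with array weights too, but these genes were chosen for opposite calls. All 108 such genes had a called difference by the equal-weight fit, so it is no separate support. Groups of 2 arrays are too small for an outlier test.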

How the results depend on the processing

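Of 133 named genes 98 had a called difference, 85 of these also with array weights and 65 under every alternative run. Of the 27 list medians, 4 changed sign under an alternative (PHO signalling, glutathione, hexose transport and oxidative stress), all within 0.2 of 0. Array number and the scatter at high phosphate limit the precision; signal over background is unknown. Below, pairs give higher and lower calls. The difference had 580 and 226 with array weights, 604 and 289 with only the 8 h arrays (where low phosphate had 529 lower and high phosphate 0 and 0, against 659 and 810 at an unadjusted p under 0.05 in limma) and 515 and 331 over the 1945 genes with at least 2 spots, where fewer genes were tested. On those genes low phosphate had 547 and 424, high phosphate 261 and 250 and the change from 4 h 311 and 160. With array weights low phosphate had 1250 lower, high phosphate 0 and 0, and the change 356 and 121. With 1 weight per condition high phosphate had 104 and 201, with its own arrays alone 0 and 0, and with its mean of 4, 8 and 10 h 849 and 909. Without centring, calls split 818 and 1169 at low phosphate, 142 and 814 at high phosphate and 204 and 254 for the change; the median of all genes then stood at -0.13 and -0.18 in the 2 conditions. The difference had the other sign under some alternative for 15 of the 133 named genes, 13 of them on leaving out an array. For 4 of the 15 it was called by the equal-weight fit or by that alternative: without 1 or the other high phosphate array the difference of DDP1 ran from -0.52 to 1.41, the difference of RPN7 from -0.59 to 2.23 and the difference of PHO81 from -0.57 to 0.57, and the difference of YAP1 was -0.028 with the high phosphate mean of 3 times. The cause of these shifts was not tested.

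Leaving out 1 array gave 681 to 1401 higher and 336 to 728 lower differences; without low phosphate array 1 or 2 it gave 686 or 681 higher and 341 or 336 lower. At low phosphate the range was 733 to 1392 higher and 349 to 1042 lower, at high phosphate 421 to 555 and 385 to 909, and for the change 247 to 975 and 99 to 456, each lowest without a low phosphate 8 h array. A lone array was assumed to vary like the other groups.

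With the replicate block the difference had 1087 and 589 calls, low phosphate 1169 and 801, high phosphate 495 and 538, and the change 553 and 231. Deviations of same-numbered arrays correlated between -0.12 and 0.19 across the pairs of groups (0.14 at 8 h), so the numbers were not taken to pair the arrays.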

Other observations

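Spots without a gene name in either table, 1536 of them, were left out of the tests. At 8 h 106 had a value on all 4 arrays. Of these, 13 were at least 2-fold higher at low than at high phosphate without overlap and 11 at least 2-fold lower, with mean differences from -1.88 to 1.91.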
